A study of Rattus norvegicus with 47 samples.

Results

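Transcripts of 10 genes of the brain endothelium and the blood-brain barrier were followed in the striatum and the cerebellum of rats that inhaled PCB52, a polychlorinated biphenyl, or were sham-exposed. The genes were taken by name: Cldn5, Ocln, Cdh5, Pecam1 and Flt1 for junctions and the endothelial surface, Abcb1a, Abcg2, Slc2a1 and Mfsd2a for transport, and Cavin2 for caveolae. All 10 were found among the 15319 genes counted in both regions, and all 10 passed the filter on low counts in every fit. The animals were male and female Sprague-Dawley rats that breathed through a nose-only apparatus for 4 h daily over 28 days. Allocation took place at 39 days of age in males and 42 days in females. Sex and age at allocation therefore cannot be told apart in comparisons of females with males. The labels give the sham groups by name without describing what they breathed. Striatum was represented by 4 sham males, 6 PCB52 males, 6 sham females and 6 PCB52 females, and cerebellum by 5, 5, 6 and 6 animals in the same order. By the labels each library came from a tissue punch of 1 numbered animal, and the animal is the replicate. By number, 21 animals had a library of each region. Whether the 5 libraries with transcripts of both sexes, named below, hold RNA of 1 animal only is not known. Levels are given in CPM, counts scaled to library size, with TMM factors over all 44 libraries. No transcript lengths were used, so levels are compared between libraries for 1 gene and never between genes.

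The endothelium of brain capillaries is sealed by tight junctions, carries little vesicular traffic and moves nutrients and foreign compounds through dedicated transporters; together these properties make the blood-brain barrier. Pericytes and the end-feet of astrocytes surround these capillaries, and endothelial Wnt signalling, driven in part by Wnt7a and Wnt7b from neural cells, maintains the barrier state. ETS-family transcription factors are general regulators of endothelial genes. In a tissue punch, fewer endothelial cells and less RNA per endothelial cell cannot be told apart.

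The libraries held 5684508 to 15865054 counted reads. Striatal punches carried Drd1 at 195 to 468 CPM against 0.406 to 9.46 CPM in cerebellum, and cerebellar punches carried Cbln1 at 1462 to 2288 CPM against 1.61 to 104 CPM in striatum. Some libraries stood apart. Striatum PCB52 female 22 carried transcripts of cerebellar neurons, with Cbln1 at 104 CPM, Gabra6 at 67.9 CPM and Pcp2 at 31.0 CPM, where the highest other striatal libraries had 20.1, 1.96 and 11.6 CPM. In 5 sham libraries (striatum male 3 and cerebellum females 8 and 10 and males 9 and 11) Xist, a transcript of females, and Eif2s3y, a transcript of males, were both above 3 CPM. The library labelled cerebellum sham male 9 held Xist at 267 CPM and Eif2s3y at 9.99 CPM, where Eif2s3y was 57.9 to 91.2 CPM in the cerebellar males without Xist. Choroid plexus or meningeal transcripts were far above the region's median in striatum PCB52 female 20 and cerebellum sham male 1, with summed choroid plexus markers of 12000 and 2380 CPM against region medians of 47.3 and 41.6 CPM. Ribosomal protein transcripts, measured as the mean log2 CPM of 78 genes, were above 8.7 in striatum sham female 12 (8.82) and in 4 cerebellar libraries, PCB52 males 15 (9.07) and 23 (9.62) and PCB52 females 16 (9.03) and 20 (9.21). The highest of the other cerebellar libraries stood at 8.49. These 4 belong to the 11 exposed cerebella, and 0 of the 11 sham cerebella were as high. Exposure and a list mean this high therefore cannot be told apart in cerebellum.

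The 250 bases before a transcription start, as a RefSeq promoter table of the assembly GRCr8 places that start, were found for 7 of the 10 genes: Cldn5, Ocln, Flt1, Abcb1a, Abcg2, Slc2a1 and Cavin2. For Ocln, Flt1, Abcb1a and Abcg2 this window lies inside the gene's annotated span. The window is shown for Flt1 and Cldn5, whose levels followed the mean of the ribosomal protein transcripts in opposite directions across cerebellar libraries. It is also shown for Cavin2, which had the lowest p-value of the 10 in the comparison of exposed with sham cerebellum. The counts themselves were made on the build rn6. Capitals mark AGGAAG, the core of ETS binding motifs, on the printed strand or as CTTCCT on the other, and each run is written 5′ to 3′ in the direction of the gene.
Flt1, chr12:12333180-12333429, plus strand: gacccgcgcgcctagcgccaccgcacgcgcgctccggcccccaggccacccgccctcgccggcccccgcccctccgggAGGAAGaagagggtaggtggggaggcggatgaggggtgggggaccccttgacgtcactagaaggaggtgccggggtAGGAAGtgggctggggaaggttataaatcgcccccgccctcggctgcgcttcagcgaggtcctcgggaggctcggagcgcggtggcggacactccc
Cldn5, chr11:95718599-95718848, minus strand: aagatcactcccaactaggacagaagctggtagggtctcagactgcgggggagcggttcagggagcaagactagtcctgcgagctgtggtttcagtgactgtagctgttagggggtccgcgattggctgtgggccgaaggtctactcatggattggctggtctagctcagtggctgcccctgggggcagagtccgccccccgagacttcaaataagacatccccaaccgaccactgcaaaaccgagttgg
Cavin2, chr9:57806025-57806274, minus strand: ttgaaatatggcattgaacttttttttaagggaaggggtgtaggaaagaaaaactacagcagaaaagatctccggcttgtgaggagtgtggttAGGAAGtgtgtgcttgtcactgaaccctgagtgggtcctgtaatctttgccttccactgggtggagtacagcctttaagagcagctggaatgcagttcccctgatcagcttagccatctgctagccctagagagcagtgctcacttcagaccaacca
The ETS core occurred 2 times before Flt1, 1 time before Cavin2 and 0 times before Cldn5. Of the 7 genes 3 held it (the third is Abcg2), against 29.5% of 33469 promoter windows of the same length. GGGCGG, the GC box, was in 5 of the 7 and in 30.5% of all windows, with 3 copies before Flt1, 1 before Cldn5 and 0 before Cavin2. The composite FOX-ETS motif AANAGGAA (8.33% of windows), the SOX motif ACAAT (30.0%), the TCF/LEF motif CTTTGA (13.9%) and the GATA motif AGATAA (10.3%), each read on both strands, were in 0 of the 7. GC content was 73.2% before Flt1, 58.4% before Cldn5 and 47.6% before Cavin2, beside a median of 51.2% over all windows. The FOX-ETS letters overlap those of the ETS core, and a match of letters is not evidence of binding.

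All 10 genes were higher in striatum than in cerebellum, in sham and in exposed animals alike. In sham animals the log2 difference ranged from 0.36 (Abcg2) to 1.53 (Pecam1), with a median of 1.22 over the 10, beside a median of -0.03 over the 12446 genes tested. The background was wide: 69.8% of all genes tested differed, 34.3% higher in striatum and 35.5% lower, at an adjusted p under 0.05 by edgeR's quasi-likelihood test. In exposed animals the 10 differences had a median of 1.37, beside -0.04 over all genes, of which 36.5% were higher and 40.4% lower in striatum. The count of 10 higher was the same with DESeq2, with limma, without each set of libraries named above and without each library in turn. In the 21 pairs of regions matched by animal number, striatum was the higher in 21 of 21 for 8 genes. It was the higher in 19 of 21 for Ocln and in 16 of 21 for Cldn5. The pairs of animals 3, 8, 9, 10 and 11 each include 1 library with transcripts of both sexes, so whether they are pairs within 1 animal is uncertain. Neither the count of pairs nor the share of genes without overlap between the regions was taken over all genes, so how unusual they are is not known.

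**Figure D1:**
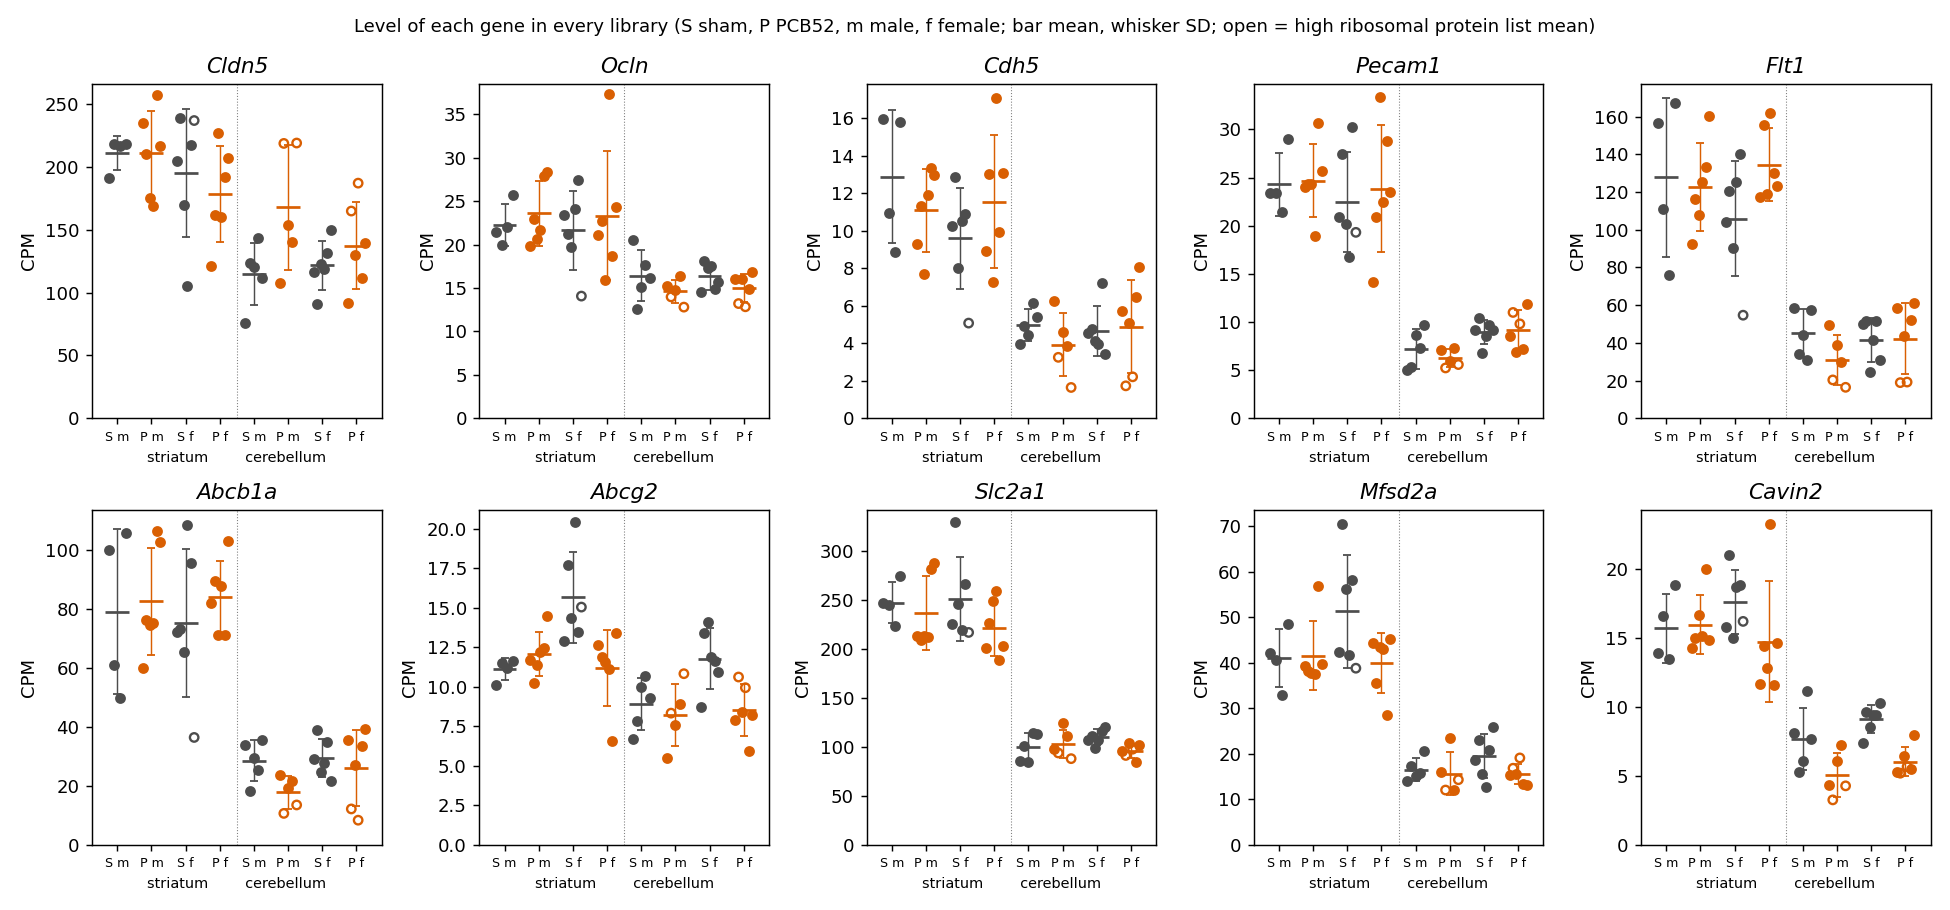
Level of each gene in CPM (linear axis from 0) in every library; S is sham, P is PCB52, m male and f female, with 1 point a library, a bar at the mean and a whisker of 1 SD. Open points are the 5 libraries with a high ribosomal protein list mean. Striatal points lie above cerebellar points without overlap for Pecam1, Slc2a1, Mfsd2a and Cavin2, while those of Cldn5, Ocln, Cdh5, Flt1, Abcb1a and Abcg2 overlap. The share of all genes without such overlap was not computed.

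Among the junction genes, Cldn5, the main claudin of brain endothelial tight junctions, stood at 105 to 239 CPM in the 10 sham striata (median 217.0) and at 76.0 to 150.0 CPM in the 11 sham cerebella (median 120). The regions overlapped: over all libraries 17 of 22 striatal values lay at or below the highest cerebellar value, 219 CPM in PCB52 male 23. Its log2 difference was 0.78 ± 0.14 (SE; adjusted p = 5.7e-06, edgeR) in sham animals and 0.35 ± 0.13 (adjusted p = 0.0169, edgeR) in exposed animals. The second value moved to 0.63 without the libraries high in ribosomal protein transcripts, and to 0.64 with the ribosomal list mean as a covariate, so it depends on these libraries by more than 1.5 times. Ocln, a second strand protein of tight junctions that other epithelia also use, ran from 14.1 to 27.5 CPM in sham striatum (median 21.8) and from 12.6 to 20.6 CPM in sham cerebellum (median 16.1). Its values overlapped too, with a log2 difference of 0.42 ± 0.11 in sham animals and 0.65 ± 0.11 in exposed animals. Cdh5, the cadherin of endothelial adherens junctions, was low in both regions, at 5.07 to 15.9 CPM in sham striatum (median 10.7) and 3.42 to 7.21 CPM in sham cerebellum (median 4.56). The difference was 1.20 ± 0.21 on the log2 scale, and 4 of 22 striatal values over both treatments reached down into the cerebellar range.

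Pecam1, an adhesion protein along endothelial cell contacts, separated the regions completely. Sham striatum held 16.8 to 30.2 CPM (median 22.4) and sham cerebellum 4.97 to 10.4 CPM (median 8.64), a difference of 2.9-fold (log2 1.53 ± 0.14, adjusted p = 3.84e-13, edgeR). Flt1, a receptor that binds VEGF, was at 54.7 to 167 CPM in sham striatum (median 116) and 24.4 to 58.6 CPM in sham cerebellum (median 44.2). Only 1 striatal library, sham female 12 at 54.7 CPM, fell within the cerebellar range, and it is the striatal library with the high ribosomal list mean. The log2 difference of Flt1 was 1.42 ± 0.21 in sham and 1.82 ± 0.20 in exposed animals.

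Of the transporters, Slc2a1, the glucose carrier of the barrier, showed the tightest values. It ran from 217.0 to 330 CPM in sham striatum (median 245) and from 84.0 to 121 CPM in sham cerebellum (median 108), 2.37-fold apart (log2 1.24 ± 0.08, adjusted p = 3.88e-17, edgeR). The coefficient of variation over sham libraries was 13.8% in striatum and 11.4% in cerebellum, and the regions did not overlap. Mfsd2a, which carries lysolipids with omega-3 fatty acids into brain and holds down transcytosis, stood at 32.9 to 70.6 CPM in sham striatum (median 42.2) and 12.7 to 25.8 CPM in sham cerebellum (median 17.3), also without overlap. Its log2 difference was 1.35 ± 0.13. Abcb1a, one of the rodent genes for the efflux pump P-glycoprotein, was at 36.3 to 108 CPM in sham striatum (median 72.6) and 18.3 to 38.9 CPM in sham cerebellum (median 29.1). The difference was 1.41 ± 0.21 in sham and 1.94 ± 0.20 in exposed animals. Abcb1b, its close paralog, was low in cerebellum (median 2.22 CPM in sham) and differed by 0.68 ± 0.24, and reads that fit both copies could have been split between them.

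Abcg2, an efflux pump for many foreign compounds and also a gene of other tissues, showed the smallest region difference of the 10 in sham animals. Sham striatum held 10.1 to 20.4 CPM (median 13.2) and sham cerebellum 6.67 to 14.1 CPM (median 10.7), with 17 of 22 striatal values over both treatments at or below the highest cerebellar one. The log2 difference was 0.36 ± 0.12 (adjusted p = 0.00683, edgeR). Striatum was nevertheless the higher in every pair of regions matched by animal number. Cavin2, a coat protein that shapes caveolae, ran from 13.4 to 21.01 CPM in sham striatum (median 16.4) and from 5.29 to 11.1 CPM in sham cerebellum (median 8.52). The regions did not overlap, and the log2 difference was 0.99 ± 0.13 in sham and 1.46 ± 0.13 in exposed animals.

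**Figure D2:**
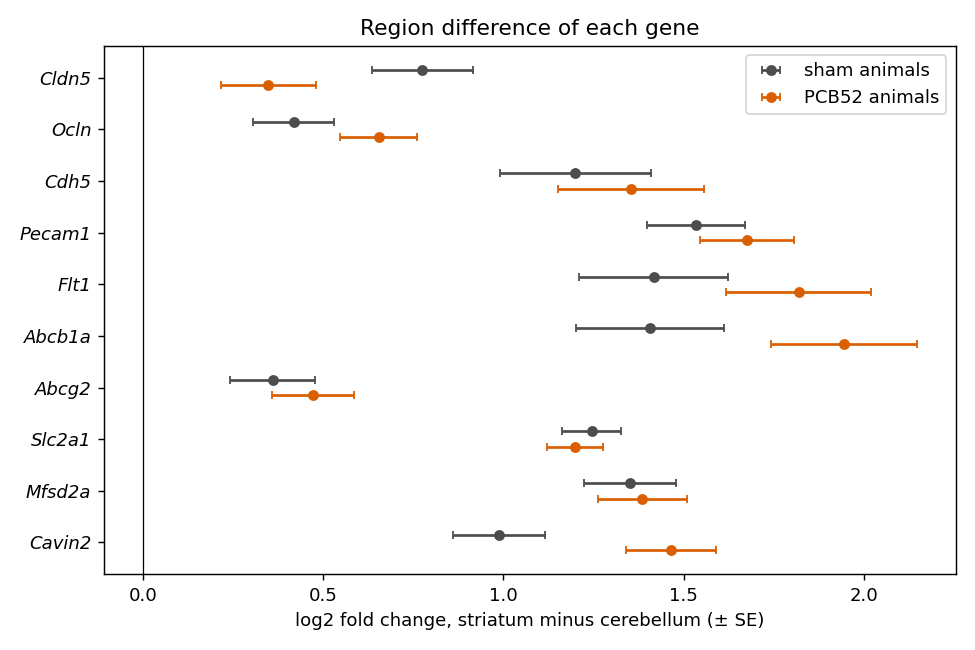
Fitted log2 fold change of each gene, striatum minus cerebellum, as a point with a whisker of 1 SE, for sham (grey) and PCB52 (orange) animals; the vertical line marks 0. All points lie to the right of 0, from 0.35 for Cldn5 in exposed animals to 1.94 for Abcb1a in exposed animals.

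Other genes of the barrier and of the cells around it were taken from lists. Of 17 measured genes of endothelial identity (20 on the list), 16 were higher in sham striatum and 0 lower, with a median log2 difference of 1.07. Egfl7, a secreted endothelial protein (1.45), and Eng, a TGF-beta co-receptor (1.42), were among those of lowest p. Of 10 further junction genes 8 were higher and 0 lower (median 0.68), including Esam (1.12) and Jam3 (1.41), both junctional adhesion proteins. Of 17 measured transporters and receptors 12 were higher and 1 lower (median 0.67 including Abcb1b), led by Slco2b1 (1.81) and Slco1c1 (1.15), carriers of organic anions and, for the latter, thyroxine. In exposed animals the same lists gave 16 of 17, 9 of 10 and 14 of 17 higher. Each share is to be read beside the 34.3% and 36.5% of all genes that were higher in striatum.

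Caveolar genes split. Of 7 further genes of caveolae and transcytosis 6 were higher in sham striatum, Cav1 among them (log2 0.95), and Plvap was lower. Plvap, a protein of the diaphragms of fenestrated and leaky endothelium, stood at 37.5 to 60.1 CPM in every sham cerebellum (median 49.7) and at 0.153 to 1.88 CPM in sham striatum (median 0.705). The fitted log2 difference was -5.77 ± 0.32 in sham animals and -4.99 ± 0.27 in exposed animals, where striatum reached 10.6 CPM. Summed markers of the choroid plexus, a tissue whose vessels carry Plvap, had medians of 41.6 CPM in cerebellum and 47.3 CPM in striatum over all libraries, and their part in the Plvap difference was not tested. Of 14 measured genes of Wnt and VEGF signalling 9 were higher in sham striatum and 2 lower (median 0.53), the ligands Wnt7a (2.31 ± 0.11) and Wnt7b (1.40 ± 0.13) among the higher.

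Markers of other cells moved with region as well. Pericyte markers were higher in sham striatum in 10 of 11 cases (median 1.34), with summed levels of 223 to 409 CPM in striatum and 108 to 195 CPM in cerebellum, which did not overlap; Atp13a5 (2.26) and Cspg4 (2.22) were among them. Smooth muscle markers were higher in 3 of 6 (summed 89.0 to 153 CPM against 73.4 to 157 CPM), and perivascular macrophage markers in 3 of 5 (11.2 to 21 CPM against 2.54 to 17.4 CPM). Oligodendrocyte markers were higher in 8 of 8 (median 0.97), astrocyte markers were higher in 3 and lower in 2 of 9, and meningeal markers were lower in 3 of 12. Choroid plexus markers were lower in 4 of 8 and higher in 0 in sham animals, where cerebellum male 1 had the summed level of 2380 CPM, and higher in 3 and lower in 0 in exposed animals, where striatum female 20 had that of 12000 CPM. Without these libraries they were higher in 2 and lower in 5 of 8 in both, and meningeal markers were lower in 6 of 12 in sham animals. The part of vessel density, of cell make-up or of RNA per cell in the region difference of the 10 genes was not tested.

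Inhaled PCB52 was compared with sham exposure to ask whether transcripts of the barrier differ with exposure in either sex. By edgeR's quasi-likelihood test 0 of the 10 genes changed in any of the comparisons of exposed with sham animals, against a background of 0 of 12142 genes (0%) in striatum and 0 of 11690 (0%) in cerebellum. In striatum the members with an unadjusted p under 0.05 numbered 0 in males and 2 in females, both lower with PCB52, where 0.898% and 13.4% of all genes reached that level. In cerebellum they numbered 2 in males (1 higher, 1 lower) and 3 in females (all lower), with 14.3% and 3.16% of all genes. Over both sexes they numbered 0 in striatum, beside 5.8% of all genes, and 3 in cerebellum (Cldn5 higher, Cavin2 and Abcg2 lower), beside 14.8%. DESeq2 called 1 and 23 genes in striatal males and females and 1 and 9 in cerebellar males and females, with 0 members among them, and limma called 0 in each. Of the markers of other cells, 0 passed the threshold for exposure by edgeR. In cerebellar females 0 of 8 oligodendrocyte markers had a positive difference (median -0.54, 4 with an unadjusted p under 0.05), with summed levels of 4920 to 11100 CPM in exposed and 6580 to 14600 CPM in sham animals. In striatal females 7 of 7 choroid plexus markers had a positive one (median 3.33, 7 with an unadjusted p under 0.05), and without animal 20 it was 4 of 6 (median 0.12, 0 with an unadjusted p under 0.05). Their part in the values of the 10 genes was not tested.

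**Figure D3:**
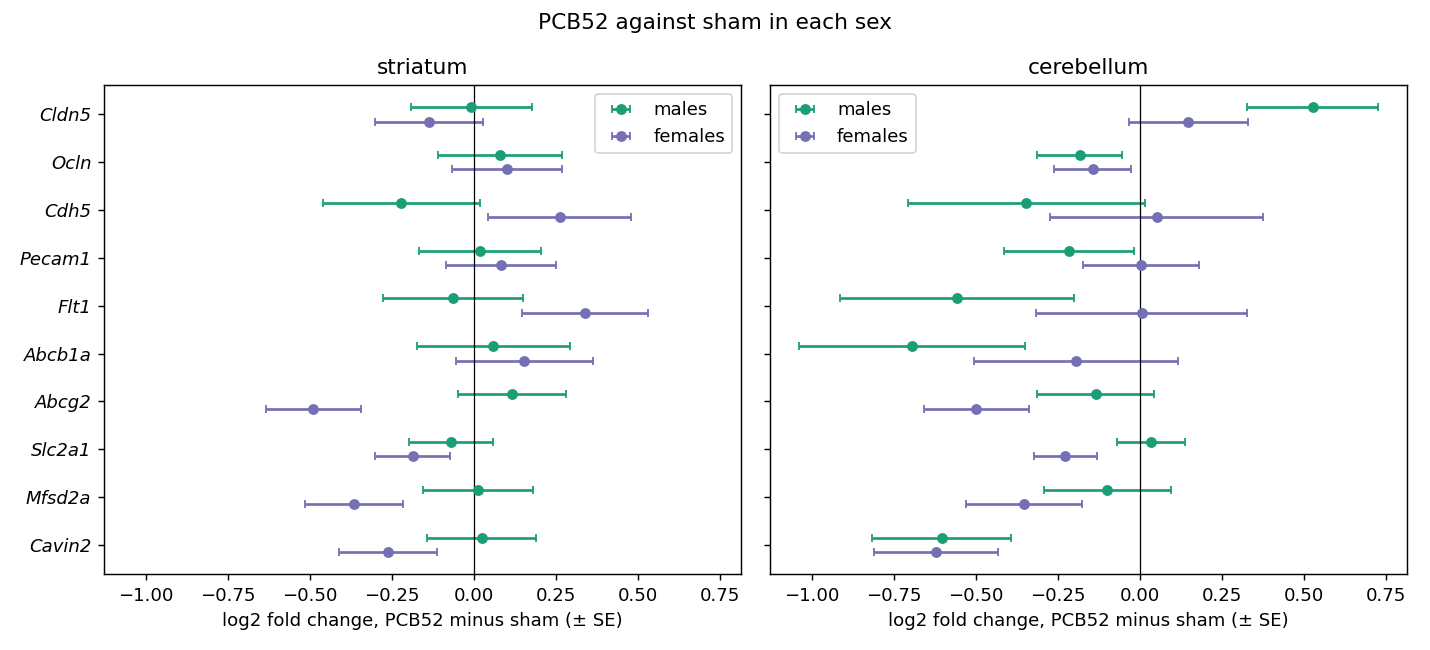
Fitted log2 fold change of each gene, PCB52 minus sham, in males and females of each region, as a point with a whisker of 1 SE; the vertical line marks 0. Cavin2 lies to the left of 0 in both sexes in cerebellum (-0.60 and -0.62), and Abcg2 lies to the left in females of both regions (-0.49 and -0.50). The females of both regions are the same animals.

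Cavin2 had the lowest p-value of the 10 in cerebellum. In sham males it stood at 8.09, 5.29, 6.08, 11.1 and 7.64 CPM in animals 1, 3, 7, 9 and 11, where the highest value is that of the library labelled male 9, and in PCB52 males at 4.32, 3.25, 6.09, 7.26 and 4.27 CPM in animals 13, 15, 19, 21 and 23. In females the lowest, median and highest values were 7.38, 9.40 and 10.3 CPM with sham and 5.18, 5.59 and 7.94 CPM with PCB52. In females 5 of 6 exposed libraries lay below all sham libraries, in males 3 of 5, and the groups overlapped in both sexes. The log2 difference was -0.60 ± 0.21 in males and -0.62 ± 0.19 in females. Averaged over the sexes it was -0.61 ± 0.14 (unadjusted p = 0.000312, adjusted p = 0.326, edgeR; 95% interval -0.91 to -0.31). DESeq2 placed the mean of both sexes past the threshold at -0.61 (adjusted p = 0.0247), one of 21 genes it called, and limma with sample quality weights gave -0.38 (adjusted p = 0.238). The difference was -0.46 without the libraries high in ribosomal protein transcripts, -0.57 with their list mean as a covariate and -0.48 without the libraries with transcripts of both sexes. In males alone it was less stable, at -0.22 with limma, -0.39 without the libraries high in ribosomal protein transcripts and -0.37 without those with transcripts of both sexes. Without the library labelled sham male 9 alone it was -0.44 in males and -0.53 over both sexes.

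In striatum the same gene gave 13.9, 16.6, 13.4 and 18.8 CPM in sham males 1, 3, 9 and 11 and 14.3 to 19.97 CPM in PCB52 males (median 15.1). Striatal females gave 14.96 to 21.01 CPM with sham (median 17.4) and 11.6 to 23.3 CPM with PCB52 (median 13.6). In females 5 of 6 exposed values lay below all sham values, while the sixth, animal 20 at 23.3 CPM, lay above all of them; this is the library rich in choroid plexus transcripts. The difference in females was -0.26 ± 0.15 with that library, -0.43 without it and -0.20 without animal 22, whose library carries cerebellar transcripts, and in males it was 0.02 ± 0.17. The striatal effect minus the cerebellar effect was 0.48 ± 0.18 for Cavin2 (unadjusted p = 0.0109, adjusted p = 0.268, edgeR), so a difference between the regions was not shown. Among 7 further caveolar genes in cerebellum 0 passed the threshold, and Cav2 (-0.20), Cavin3 (0.52), Plvap (0.14) and Cavin1 (-0.15) had the lowest p-values. The list had a median of -0.06, beside 0.00 over all genes.

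Abcg2 was lower with PCB52 in females of both regions, though short of the adjusted threshold. The females of both regions are the same animals. The values of the regions are therefore not independent, here and for the sham sexes below. Sham striatal females stood at 12.9, 14.7 and 20.4 CPM (lowest, median, highest) and exposed striatal females at 6.58, 11.7 and 13.4 CPM, with 5 of 6 exposed below all sham animals. Sham cerebellar females stood at 8.72, 11.8 and 14.1 CPM and exposed ones at 5.93, 8.32 and 10.6 CPM, with 4 of 6 below all sham animals. The log2 differences were -0.49 ± 0.15 in striatum (unadjusted p = 0.00274, adjusted p = 0.268, edgeR) and -0.50 ± 0.16 in cerebellum (unadjusted p = 0.00513, adjusted p = 1, edgeR). The lowest exposed striatal female, at 6.58 CPM, is animal 22, whose library carries cerebellar transcripts and is the lowest of all 22 striatal libraries for Abcg2, Slc2a1, Mfsd2a and Cavin2. Without it the striatal difference was -0.37 (adjusted p = 0.286, edgeR), and the part of these transcripts was not tested. In striatal males the difference was 0.12 ± 0.16, and 4 of 6 exposed animals lay above all 4 sham animals. In cerebellar males it was -0.13 ± 0.18, with 1 of 5 exposed animals below all sham animals and 1 above. The effect in striatal females less that in males was -0.61 ± 0.22 (unadjusted p = 0.0113, adjusted p = 0.914, edgeR), so a difference between the sexes was not shown. Sham females had been above sham males for Abcg2, by 0.50 ± 0.16 in striatum (unadjusted p = 0.00598) and 0.41 ± 0.17 in cerebellum (unadjusted p = 0.0237), with an adjusted p of 1 by edgeR in each, so the female PCB52 comparison and this one share the sham females. Libraries with transcripts of both sexes, 4 of the 11 sham cerebella and 1 of the 10 sham striata, enter these values. Without them the differences were 0.52 in striatum (adjusted p = 0.998, edgeR) and 0.53 in cerebellum (adjusted p = 0.993, edgeR).

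Cldn5 was the one member with a positive difference over both sexes in cerebellum. Sham males stood at 76.0, 123, 120, 144 and 111 CPM in animals 1, 3, 7, 9 and 11, and PCB52 males at 107, 219, 154, 140 and 219 CPM in animals 13, 15, 19, 21 and 23. The 2 values of 219 CPM are animals 15 and 23, which have the high ribosomal list means; of the other 3 exposed males, animal 19 at 154 CPM lay above all sham males and animals 13 and 21 lay among them. Females gave 91.0, 120 and 150.0 CPM with sham and 91.6, 135 and 187 CPM with PCB52, and the 2 exposed females above all sham females are animals 16 and 20, again the libraries with high ribosomal list means. The log2 difference was 0.53 ± 0.20 in males (unadjusted p = 0.0157, adjusted p = 0.313, edgeR) and 0.34 ± 0.14 over both sexes. Without the high libraries the latter was 0.08, and with the list mean as a covariate 0.11. All high cerebellar libraries are exposed, so leaving them out or adjusting for the list mean could also take out a difference of exposure.

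Flt1 and Abcb1a went the other way in the same libraries. Flt1 in cerebellar males was 58.6, 34.3, 44.2, 31.1 and 57.4 CPM with sham and 49.2, 20.3, 38.7, 29.9 and 16.4 CPM with PCB52, in the animal order given for Cldn5. Abcb1a was 33.6, 18.3, 29.4, 25.3 and 35.4 CPM with sham and 23.5, 10.6, 19.4, 21.6 and 13.4 CPM with PCB52. In both genes the lowest exposed males were animals 15 and 23. The differences in males were -0.56 ± 0.36 for Flt1 and -0.69 ± 0.34 for Abcb1a, and over both sexes -0.28 ± 0.24 and -0.44 ± 0.23. Without the high libraries the values over both sexes were 0.07 for Flt1, a change of sign, and -0.12 for Abcb1a. The limit given for Cldn5 holds for these values too.

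Of the remaining members, Mfsd2a in striatal females had values of 38.8, 49.2 and 70.6 CPM with sham and 28.5, 43.2 and 45.1 CPM with PCB52, which overlapped (log2 -0.36 ± 0.15, unadjusted p = 0.0227, adjusted p = 0.34, edgeR). The lowest of these is again animal 22, and without it the difference was -0.28 (adjusted p = 0.392, edgeR). Slc2a1 in cerebellar females had 98.4, 109 and 121 CPM with sham and 84.4, 96.6 and 104 CPM with PCB52, with 4 of 6 exposed animals below all sham animals (log2 -0.23 ± 0.10, unadjusted p = 0.0274, adjusted p = 1, edgeR). Animals 16 and 20, with high ribosomal list means, are among these 4, and the libraries of sham females 8 and 10 carry transcripts of both sexes. Ocln, Cdh5 and Pecam1 had no unadjusted p under 0.05 in any comparison of exposed with sham animals. In striatum over both sexes the 95% intervals of these 3 genes were -0.18 to 0.36, -0.32 to 0.36 and -0.21 to 0.32 on the log2 scale. The narrowest interval of the 10 there was that of Slc2a1, -0.31 to 0.05. In cerebellum the interval of Cdh5 was -0.66 to 0.36 and that of Flt1 -0.78 to 0.23, so changes of over 1.5-fold were within the uncertainty of the low or variable genes.

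The wider lists showed 0 genes past the threshold in either region for exposure. In cerebellum over both sexes the endothelial identity list had 8 positive and 8 negative differences (median -0.03), and Egfl7 (0.40 ± 0.11, unadjusted p = 0.00174) and Adgrl4, an endothelial adhesion receptor (-0.36 ± 0.14, unadjusted p = 0.0143), had the lowest p-values, in opposite directions. The pericyte list likewise held Ndufa4l2 at 0.54 ± 0.16 and Kcnj8, a potassium channel, at 0.33 ± 0.13 beside a list median of -0.06. In striatum Vegfa, the main ligand of Flt1 and its sister receptor, had 0.26 ± 0.08 (unadjusted p = 0.00473, adjusted p = 0.774, edgeR). Pericyte summed levels overlapped between exposed and sham animals in each sex and region, for example 108 to 195 CPM in exposed and 121 to 160 CPM in sham cerebellar females.

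Females and males were also compared within each treatment, and 0 of the 10 genes passed the threshold in any of the 4 comparisons by edgeR, where 4 genes were called in sham striatum (0.0329%, with 0.0165% in each direction), 5 in exposed striatum (0.0412%, with 0.0247% higher and 0.0165% lower in females) and 0 (0%) in either cerebellar comparison. Without the libraries with transcripts of both sexes, 4 genes were called in sham and 5 in exposed cerebellum. In exposed cerebellum Xist stood at 194 to 608 CPM in females and at 0.0967 to 0.282 CPM in males. With all libraries edgeR nevertheless did not call it there (smallest adjusted p of any gene = 0.0758). The absence of calls in cerebellum, of members included, therefore does not show that the sexes are alike. Members with an unadjusted p under 0.05 numbered 1 in sham striatum and 0 in exposed striatum, beside 2.55% and 4.69% of all genes. They numbered 1 in sham and 1 in exposed cerebellum, beside 1.05% and 3.24%. Beyond Abcg2 above, Pecam1 was higher in exposed cerebellar females than in exposed cerebellar males, at 6.90, 9.17 and 11.8 CPM (lowest, median, highest) against 7.12, 5.22, 5.96, 7.26 and 5.58 CPM in animals 13, 15, 19, 21 and 23. The groups overlapped, and the log2 difference was 0.55 ± 0.19 (unadjusted p = 0.00827, adjusted p = 0.708, edgeR). Age at allocation also differed between the sexes in all of these comparisons. The female minus male difference in the effect of PCB52 was called for 0 members in either region, against 0% of all genes in each, and 1 member in striatum (Abcg2) and 0 in cerebellum had an unadjusted p under 0.05, beside 3.88% and 2.17% of all genes. DESeq2 called 0 and 4 genes there, with 0 members among them.

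Across libraries some of the 10 genes moved together. Levels were set against each other after the group means were subtracted, in 220 correlations with permutation p-values adjusted together. In the 22 striatal libraries 39 of 45 pairs of genes were positive and 12 passed the adjusted threshold, all positive. The share of pairs among all genes that would pass was not computed, here or in cerebellum. How unusual these counts are is therefore not known. Flt1 and Abcb1a were the closest pair (Pearson r = 0.90, permutation p = 3e-05, adjusted p = 0.0011; Spearman rho = 0.87, permutation p = 2e-05, adjusted p = 0.000629). The value was 0.81 without the 2 libraries farthest from the median and 0.84 without the library high in ribosomal protein transcripts. Cdh5 went with Flt1 (r = 0.85, permutation p = 2e-05, adjusted p = 0.0011; rho = 0.87, permutation p = 1e-05, the smallest the permutations can give, adjusted p = 0.00044), with r = 0.82 without the 2 farthest. Ocln went with Cdh5 (r = 0.82, permutation p = 5e-05, adjusted p = 0.00122; rho = 0.79, permutation p = 6e-05, adjusted p = 0.00147), with r = 0.72 without the 2 farthest. Slc2a1 and Mfsd2a formed another pair (r = 0.74, permutation p = 0.00022, adjusted p = 0.00302; rho = 0.77, permutation p = 0.0002, adjusted p = 0.00289), with r = 0.76 without the 2 farthest. Cldn5 paired with Pecam1 alone (r = 0.74, permutation p = 0.00033, adjusted p = 0.00403; rho = 0.66, permutation p = 0.00279, adjusted p = 0.0212), with r = 0.63 without the 2 farthest.

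**Figure D4:**
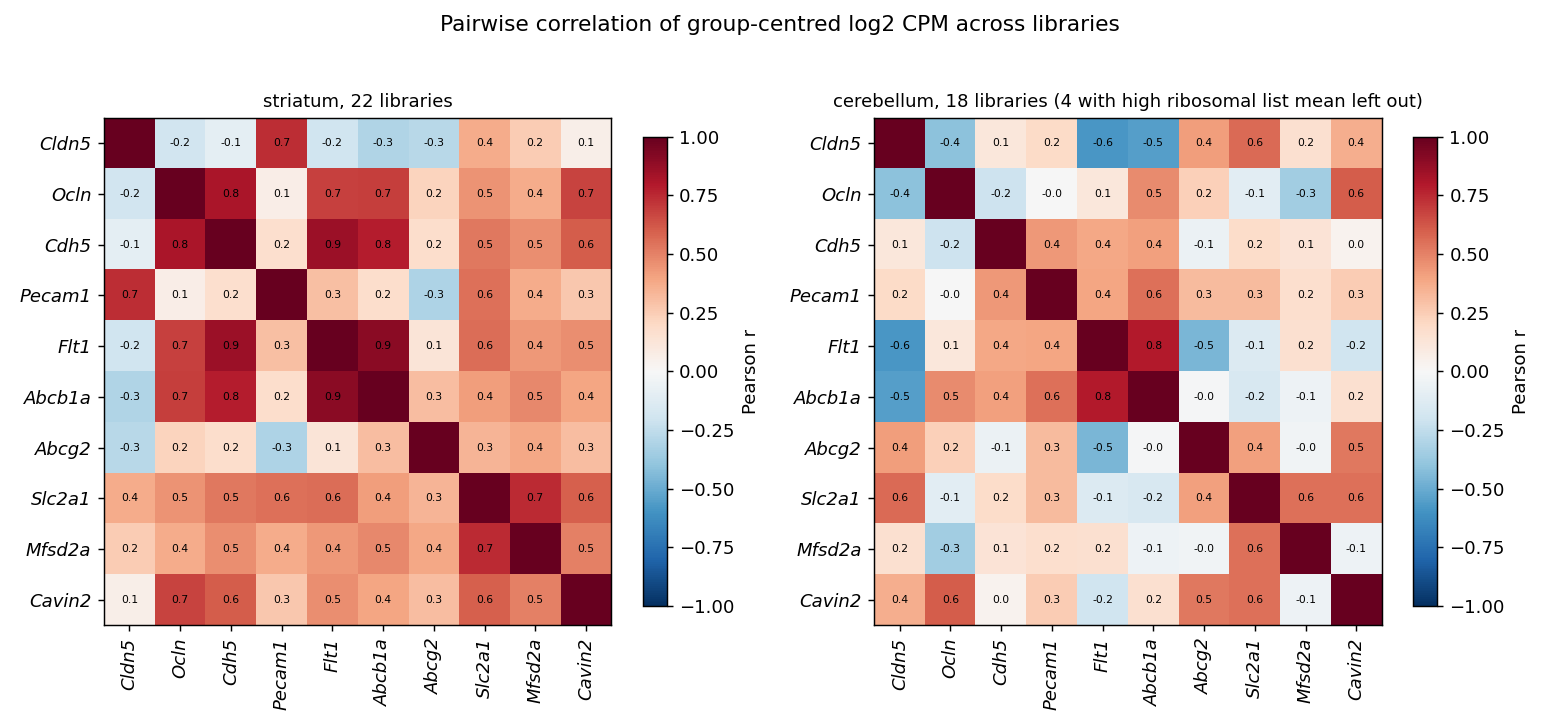
Pearson correlation of each pair of genes across libraries after subtraction of group means, for the 22 striatal libraries (left) and the 18 cerebellar libraries without the 4 of high ribosomal list mean (right); red is positive, blue negative, and each cell prints r to 1 decimal. Flt1 and Abcb1a are strongly positive in both panels, and the Cldn5 row holds blue cells against Flt1 and Abcb1a.

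In cerebellum the 4 libraries of high ribosomal list mean formed a cluster apart, too few for a correlation of their own, so the relation was computed in the other 18. There 29 of 45 pairs were positive, and 1 passed the adjusted threshold: Flt1 and Abcb1a (r = 0.79, permutation p = 0.00064, adjusted p = 0.00587; rho = 0.86, permutation p = 0.00013, adjusted p = 0.0026; r = 0.85 without the 2 farthest libraries). Cldn5 against Flt1 was the most negative, at r = -0.58 (permutation p = 0.0207, adjusted p = 0.078; rho = -0.58, permutation p = 0.0204, adjusted p = 0.0875), and did not pass. In these 18 libraries the level of Flt1 fell as the ribosomal list mean rose (r = -0.88, permutation p = 0.00011, adjusted p = 0.00202; rho = -0.84, permutation p = 0.00021, adjusted p = 0.00289; -0.87 without the 2 farthest). Abcb1a did so too (r = -0.80, permutation p = 0.0006, adjusted p = 0.00574; rho = -0.81, permutation p = 0.00057, adjusted p = 0.00545; -0.77 without the 2 farthest). Cldn5 rose with it (r = 0.84, permutation p = 0.00016, adjusted p = 0.00271; rho = 0.86, permutation p = 0.00024, adjusted p = 0.00293; 0.77 without the 2 farthest). The other 7 genes did not pass the adjusted threshold in this comparison. The share of all genes that rise or fall with the ribosomal list mean was not computed, here or in striatum. How unusual Flt1, Abcb1a and Cldn5 are in following it is therefore not known.

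The 4 libraries left out lay beyond the same trends. Flt1 stood at 16.4 to 20.3 CPM in them against 24.4 to 60.9 CPM in the other 18, Abcb1a at 8.29 to 13.4 CPM against 18.3 to 39.1 CPM, and Cldn5 at 165 to 219 CPM against 76.0 to 154 CPM. Cdh5 was also below the range of the rest, at 1.64 to 3.25 CPM against 3.42 to 8.09 CPM. Pecam1, in contrast, lay inside it, at 5.22 to 10.99 CPM against 4.97 to 11.8 CPM, as did Ocln, Slc2a1 and Abcg2. Cavin2, at 3.25 to 5.66 CPM against 4.32 to 11.1 CPM, reached below the range in part. Mfsd2a did so barely, at 12 to 19.1 CPM against 12.1 to 25.8 CPM. The share of all genes without overlap between these 4 libraries and the other 18 was not computed. In the 21 striatal libraries without sham female 12, Cldn5 rose with the ribosomal list mean (r = 0.54, permutation p = 0.00896, adjusted p = 0.0429; rho = 0.60, permutation p = 0.00307, adjusted p = 0.0218; 0.63 without the 2 farthest) and Flt1 had r = -0.52 (permutation p = 0.0198, adjusted p = 0.0763; rho = -0.53, permutation p = 0.0353, adjusted p = 0.118). What links these transcripts to the ribosomal list was not tested.

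**Figure D5:**
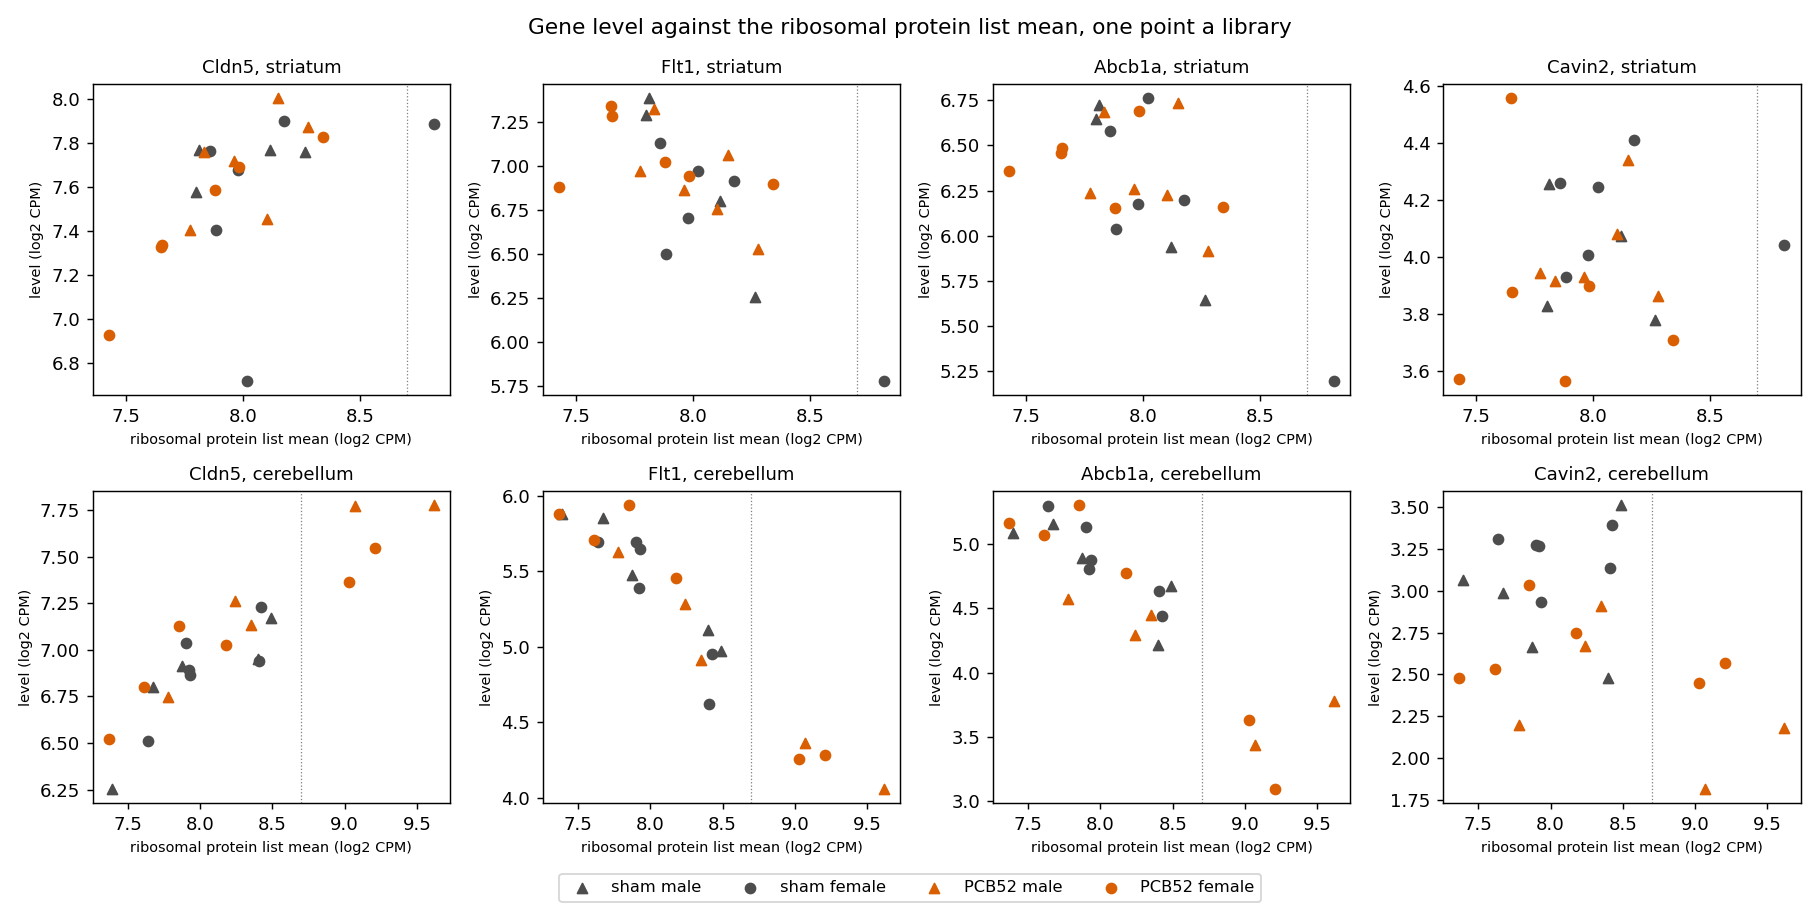
Level of Cldn5, Flt1, Abcb1a and Cavin2 (log2 CPM) against the mean log2 CPM of 78 ribosomal protein genes, 1 point a library, for striatum (top) and cerebellum (bottom); triangles are males, circles females, grey sham and orange PCB52, and the dotted line marks 8.7. In cerebellum Cldn5 climbs and Flt1 and Abcb1a descend along the axis, and the 4 points right of the line are all PCB52.

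The genes whose levels most resembled the mean of the 10, after subtraction of group means, differed between the regions. In the 22 striatal libraries the nearest of the tested genes were Sipa1 (r = 0.91), Itgb1 (r = 0.90), Arhgap30, Fermt2, Sorbs3, Prodh, Notch4, Plat, Fgfr3 and Zbtb7b (r = 0.84). In the 22 cerebellar libraries, the 4 of high ribosomal list mean included, they were Mecom (r = 0.80), Acer2 (r = 0.80), Zfp365, Plekhg5, Mylk, Csrnp3, Tbr1, Tmem200a, Calcrl and Rreb1 (r = 0.74). Of the 50 nearest genes in each region 4 were shared, Itgb1, Plat, Dock6 and Edem1 (the last 2 named after their values were seen); Itgb1 encodes an integrin chain and Plat tissue plasminogen activator. These correlations are descriptions over libraries that share region and processing, with no test. Against the mean of the other 9, Cldn5 had the lowest correlation of the 10 in both regions, 0.06 in striatum and -0.42 in cerebellum, and Slc2a1 had 0.80 and 0.68.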

How the data were processed

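Messenger RNA was measured by sequencing in striatal and cerebellar punches, 44 libraries in all. The submitters' processing notes name FastQC, the aligner HISAT2 and the rat build rn6, without versions. The labels' protocols give poly(A) capture or ribosomal RNA removal without saying which was used for which library. Which counter, annotation and strand setting were used is not given in the sources used here. Overlapping and antisense genes therefore cannot be told apart. The deposited values are whole-number counts per gene, not normalized by the authors, for 15319 genes, of which 15230 identifiers (99.4%) matched a symbol of the GRCr8 gene table, used for names only. Of 47 labelled samples, 3 sham males (animal 5 for cerebellum, animals 5 and 7 for striatum) are not analysed here.

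Counts were tested with edgeR 4.0.16 (quasi-likelihood F-test, TMM, default filter on low counts, robust; R 4.3.3), two-sided, with Benjamini-Hochberg adjustment over all genes tested and a threshold of 0.05. Each region was fitted with its sex-by-treatment means, and the region comparison with all libraries. Scripts were tested on simulated data, for differences averaged over both sexes. At a log2 fold of 1, 91% of changed genes were recovered for exposure in striatum, 86% in cerebellum and 88% for region in sham. False calls among unchanged genes numbered 7, 15 and 18. Smaller differences, and those within 1 sex, were not simulated, so these rates do not apply to them. The simulated libraries also held no shared shift in ribosomal protein transcripts, no mix of sexes and no choroid plexus transcripts. Recovery in the real libraries is therefore not known from these rates. Alternatives were DESeq2 1.42.0, limma 3.58.1 (voom with quality weights), RLE size factors, no filter, only the libraries compared, each library left out, libraries with other transcripts left out and the animal as a replicate block. Leaving out libraries with a ribosomal list mean above 8.7, or using that mean as a covariate, was chosen after seeing the data. The animal number of the labels pairs the regions; same-animal deviations correlated at -0.41 to 0.52 (median 0.09 over 21 animals), so the block was kept as an alternative. List means use a prior count of 2. No pair of libraries within a group looked like a duplicate: the chi-square of their counts over its degrees of freedom was at least 3.58. The 10 genes and all lists were chosen with earlier results of these data known. All 10 genes and Abcb1b are named by rule, with up to 4 genes of lowest p of each other list and the 10 most similar genes of each region. Permutation tests drew 100000 permutations within groups.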

Additional observations from a re-analysis of the deposited data

Results flagged for a closer look

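In 80 groups of libraries (10 genes, 8 groups each) the highest or lowest value was compared with its gap to the nearest other, by Dixon's test, and 5 groups had a value far from the rest. Chance alone marks about 1 in 20 groups. Cldn5 stood at 190.8 CPM in striatum sham male 1, below 216.9 to 218.2 CPM in the other 3. Cdh5 stood at 7.206 CPM in cerebellum sham female 10, above 3.42 to 4.747 CPM in the other 5, and this library also carries transcripts of both sexes. Abcg2 stood at 6.583 CPM in striatum PCB52 female 22, below 11.14 to 13.41 CPM. Mfsd2a stood at 56.82 CPM in striatum PCB52 male 21, above 37.46 to 39.71 CPM. Cavin2 stood at 23.28 CPM in striatum PCB52 female 20, above 11.56 to 14.63 CPM, in the library with summed choroid plexus markers of 12000 CPM. PCB52 female 22 carries cerebellar transcripts (Cbln1 at 104 CPM), and their part in its Abcg2 value was not tested. Without PCB52 female 22 the Abcg2 difference in striatal females was -0.37, and it was -0.49 with it.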

How the results depend on the processing

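The 10 genes gave 150 log2 differences and 5290 values under alternatives. Of these, 5284 kept direction and side of the threshold, 1 passed it anew and 5 changed sign. A difference smaller than its SE was given no direction, and a change of size alone was not counted. Leaving out 1 library in turn gave 3960 of the 5284, and a comparison that does not use that library's group could barely move. The new call was Cavin2 in cerebellum over both sexes with DESeq2 (-0.61, 1 member called). Sign changes were those of Flt1 with the ribosomal covariate (0.005 in cerebellar males, 0.035 over both sexes) and without the high libraries (0.07 over both sexes, -0.005 for the striatal minus the cerebellar effect), and of Abcb1a for the female minus male effect with the covariate (-0.017); the cause was not tested. Counts over all genes moved from 0 with DESeq2 to 1 and 23 in striatal males and females, 1, 9 and 21 in cerebellar males, females and both, 4 for female minus male in cerebellum and 3 for striatal minus cerebellar. Females against males in exposed cerebellum moved from 0 to 9 with DESeq2, 2 with limma, 5 without libraries of both sexes, 1 without choroid plexus or meningeal libraries, 1 with the covariate and 4 with only the libraries compared, and in sham cerebellum to 4 without libraries of both sexes; in sham striatum 4 became 2 with only the libraries compared. Leaving out 1 library in turn gave 0 to 3 and 0 to 2 genes in the exposed and sham cerebellar comparisons. With the animal as a replicate block, 10 members were called between regions in sham and 10 in exposed animals, where Cldn5 differed by 0.41, and no member's call changed. Low counts limit Cdh5, Pecam1, Abcg2 and Cavin2 in cerebellum.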
